A study of Mus musculus with 2 samples.

Results

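The 9 genes described here make, convert, carry and break down retinoic acid. They are Aldh1a1, Aldh1a2, Aldh1a3, Rdh10, Dhrs3, Crabp1, Crabp2, Stra6 and Cyp26b1, chosen by name from a proposal made with values of these arrays in view, out of 19751 named genes. Each was matched by symbol to 1 probe set that names no other gene, so all 9 were measured. Because the measured values played a part in the choice, the levels and differences below are a description and carry no test.

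Gene expression was measured by microarray in fibroblastic reticular cells (FRCs), the fibroblasts that build the scaffold of lymph nodes, after expansion in culture. The series has 1 group of 2 arrays, replicate 1 and replicate 2, and no other condition. The donors were untreated C57BL6/J mice, 4 to 6 weeks old, and stromal cells of whole lymph nodes were cultured for 7 to 10 days in aMEM with 10% fetal calf serum. The label calls the FRCs purified, while neither the purification step nor the lymph node site is stated in the sources at hand, and the labels leave unsaid if separate mice or dishes stand behind the arrays. The spread between them may therefore be technical in part. In RNA of a whole culture, fewer cells of a type and less RNA per cell cannot be told apart.

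Retinoic acid is made from vitamin A (retinol) in a pair of steps. A reversible step turns retinol into retinaldehyde, with RDH10 as the main enzyme in the forward direction and DHRS3 acting in the reverse direction. The irreversible step to retinoic acid is carried out by the retinaldehyde dehydrogenases ALDH1A1, ALDH1A2 and ALDH1A3. STRA6 is the membrane receptor that takes up retinol from its plasma carrier, CRABP1 and CRABP2 bind retinoic acid inside the cell, and CYP26 enzymes oxidise it for removal. In lymph nodes that drain the gut, stromal cells are known as a source of retinoic acid, a signal that gives T cells a gut-homing programme.

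The genes for the last step of synthesis and for the reverse enzyme Dhrs3 were 3.02- to 3.90-fold higher on replicate 2, while Rdh10 and Stra6 had nearly the same values on both arrays. Upstream sequences of Aldh1a1, Aldh1a2 and Dhrs3, each higher on replicate 2, are shown first. The 2 arrays give a single difference per gene and cannot show whether genes vary together. RefSeq windows of build GRCm38.p6 were present in the promoter table for 6 of the 9 members, with 12 windows between them. Aldh1a3, Rdh10 and Crabp2 had no entry there. The 250 bases before an annotated start are printed for Aldh1a1 (chr19:20601718-20601967, + strand, the downstream of its 2 starts), Aldh1a2 (chr9:71215539-71215788, + strand) and Dhrs3 (chr4:144892577-144892826, + strand, the most upstream of its 3 starts), 5′ to 3′. Capitals mark the octamer ATGCAAAT, a site known for POU factors, and the CCAAT box.
Aldh1a1: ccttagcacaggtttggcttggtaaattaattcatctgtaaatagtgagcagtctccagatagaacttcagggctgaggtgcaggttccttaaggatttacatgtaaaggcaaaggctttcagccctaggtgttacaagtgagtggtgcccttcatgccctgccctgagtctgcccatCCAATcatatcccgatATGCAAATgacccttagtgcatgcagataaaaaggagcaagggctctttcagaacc
Aldh1a2: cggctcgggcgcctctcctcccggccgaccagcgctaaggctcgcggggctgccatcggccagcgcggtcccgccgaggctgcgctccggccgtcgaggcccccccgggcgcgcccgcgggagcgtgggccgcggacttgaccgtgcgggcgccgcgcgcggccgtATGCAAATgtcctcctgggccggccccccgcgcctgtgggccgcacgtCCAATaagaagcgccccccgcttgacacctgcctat
Dhrs3: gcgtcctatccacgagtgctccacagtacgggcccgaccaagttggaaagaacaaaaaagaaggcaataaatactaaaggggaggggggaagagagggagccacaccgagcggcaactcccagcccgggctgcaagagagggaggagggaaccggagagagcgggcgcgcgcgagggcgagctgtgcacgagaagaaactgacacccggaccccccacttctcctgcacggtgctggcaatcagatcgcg

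The printed windows of Aldh1a1 and Aldh1a2 both held an octamer and a CCAAT box on the strand of the gene. In Aldh1a1 the octamer began 56 bases and the CCAAT box 72 bases before the start. In Aldh1a2 they began 84 and 36 bases before it, so the order was turned. Searched on both strands, the octamer was found in 1.60% and the CCAAT box in 33.8% of 32851 RefSeq windows of the same length, and both together in 0.767%. The printed Dhrs3 window held neither, and CCAAT occurred on the opposite strand in its other 2 windows. These 2 windows overlap, and the same CCAAT site lies in both. The Stra6 windows held a CCAAT box in 1 of 4. The window at the other start of Aldh1a1 and those of Crabp1 and Cyp26b1 held neither motif. In all, 2 of the 12 member windows held the octamer and 5 the CCAAT box, with both overlapping Dhrs3 windows counted.

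Base composition set the windows apart from each other. The printed Aldh1a2 window had 77.6% G and C and 40 CpG pairs, that of Dhrs3 61.6% and 19, and that of Aldh1a1 46.4% and 1. The windows at the other starts of Dhrs3 had 46.8% and 8 and 44.8% and 7. That at the other start of Aldh1a1 had 42.8% and 3. The medians over all windows were 52.4% and 6. The hexamers AGGTCA and AGTTCA, forms of the site to which retinoic acid receptors bind, were found in 0 of the 12 member windows on either strand. They were found in 14.0% and 11.8% of all windows. The related hexamer GGGTCA was found in 1 of the 12, and in 11.6% of all windows. It lay on the opposite strand of Aldh1a1, where it shares a base with the octamer. The 12 windows come from 6 genes and 2 of them overlap, so they are too few to be told from these shares. Direct repeats of any pair of these hexamers, with GGTTCA allowed as a further form, spaced by 1, 2 or 5 bases were found in 0 of the 12 on either strand, and in 0.164%, 0.174% and 0.0883% of all windows. These matches describe letters in short windows and say nothing of binding.

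All members gave signal above background. A first limit, the level below which 95% of olfactory receptor probe sets lay, was 7.15 on replicate 1 and 7.17 on replicate 2. A stricter one, set in the same way on genes restricted to tissues such as liver, testis or pituitary, was 7.99 and 8.06. On both arrays 9 of 9 members passed the first limit, as did 67.3% of all named genes, and 7 of 9 passed the stricter one, against 51.5% of all. Stra6 passed the stricter limit on neither array, and Crabp2 passed it on replicate 2. At the 99th percentile of the olfactory receptor probe sets, 8.03 and 7.88, 5 of 9 passed, without Aldh1a1, Aldh1a2, Crabp2 and Stra6, all of which lay below it on replicate 1. The share of all genes at this limit was not counted, so nothing is read from the 5 of 9. Levels of different genes are not ranked, because probes differ in how strongly they bind.

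**Figure D1:**
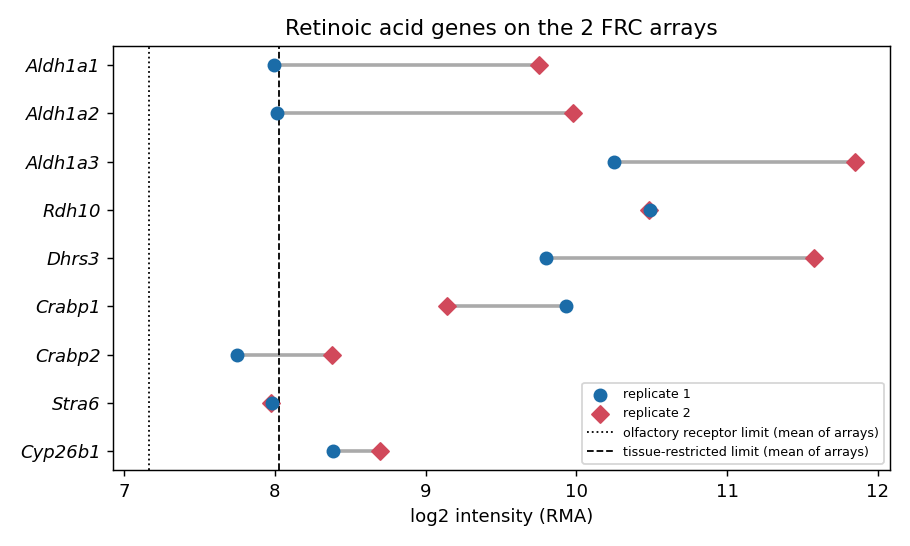
Log2 intensity of the 9 members on replicate 1 (blue circles) and replicate 2 (red diamonds), joined by a line for each gene, with the mean of each background limit over the arrays. Aldh1a1, Aldh1a2, Aldh1a3 and Dhrs3 lie far to the right on replicate 2, Crabp1 lies to the left, and the symbols of Rdh10 and Stra6 overlap.

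Among the retinaldehyde dehydrogenases, Aldh1a2, the main source of retinoic acid in the early embryo, had a log2 intensity of 8.02 on replicate 1 and 9.98 on replicate 2. This is a mean of 9.0 ± 1.39 (SD, n = 2) and a 3.90-fold difference. On replicate 1 the gene lay only just above the stricter limit, and on replicate 2 far above it.

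Aldh1a1, whose enzyme is abundant in liver and in some stem cells, had 8.0 on replicate 1 and 9.75 on replicate 2, a mean of 8.87 ± 1.24 (SD, n = 2). The array of replicate 2 was 3.38-fold higher. Its level on replicate 1 exceeded the stricter limit by 0.0029 on the log2 scale, so it was at that limit.

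Aldh1a3, which acts in the developing eye and nose, had 10.25 and 11.85, a mean of 11.05 ± 1.13 (SD, n = 2) and a 3.02-fold difference. It lay well above both limits on both arrays. All 3 synthesis genes were thus higher on replicate 2, by 1.59 to 1.96 on the log2 scale.

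In the step between retinol and retinaldehyde the members parted. Rdh10 had 10.49 on replicate 1 and 10.48 on replicate 2, a mean of 10.49 ± 0.0015 (SD, n = 2). Dhrs3 had 9.80 and 11.58, a mean of 10.69 ± 1.26 (SD, n = 2), and was 3.43-fold higher on replicate 2. The forward enzyme of this step thus had the same level on both arrays, and the reverse enzyme did not.

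The binding proteins differed in opposite directions. Crabp1 had 9.93 on replicate 1 and 9.14 on replicate 2, a mean of 9.54 ± 0.56 (SD, n = 2), and was 1.73-fold lower on replicate 2. Crabp2, whose protein hands retinoic acid to its nuclear receptor, had 7.75 and 8.38, a mean of 8.07 ± 0.45 (SD, n = 2), and was 1.55-fold higher there. Crabp2 was below the stricter limit on replicate 1, and with that array set to the 99th percentile of the olfactory receptor probe sets its difference was 1.28-fold.

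Uptake and breakdown genes differed least in this set apart from Rdh10. Stra6 had 7.98 on replicate 1 and 7.97 on replicate 2 (7.98 ± 0.0053, SD, n = 2), between the limits on both arrays. Cyp26b1, an enzyme that clears retinoic acid, had 8.39 and 8.70, a mean of 8.54 ± 0.22 (SD, n = 2), and was 1.24-fold higher on replicate 2. It passed both limits on both arrays.

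The differences were read against all 13577 genes with a mean level above that of the first limit. The median SD of these genes was 0.078 and their median difference 0.0046. At least 2-fold higher on replicate 2 were 4 of 9 members, against 1.05% of all genes, and at least 2-fold lower were 0 of 9, against 0.368% of all. At 1.5-fold, 5 members were higher and 1 lower, against 2.87% and 1.91% of all genes. The measured values played a part in the choice of members, so nothing is read from these shares.

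A difference as high as that of Aldh1a2 was found in 23 genes, itself included, or 0.169% of all. For Dhrs3 the number was 33, for Aldh1a1 35 and for Aldh1a3 47 (0.346%). For Crabp2 it was 322 (2.37%) and for Cyp26b1 1117 (8.23%). A difference as low as that of Crabp1 was found in 127 genes (0.935%). Rdh10 and Stra6 lay in the middle of the distribution, with 51.7% and 53.2% of genes at or above their differences.

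**Figure D2:**
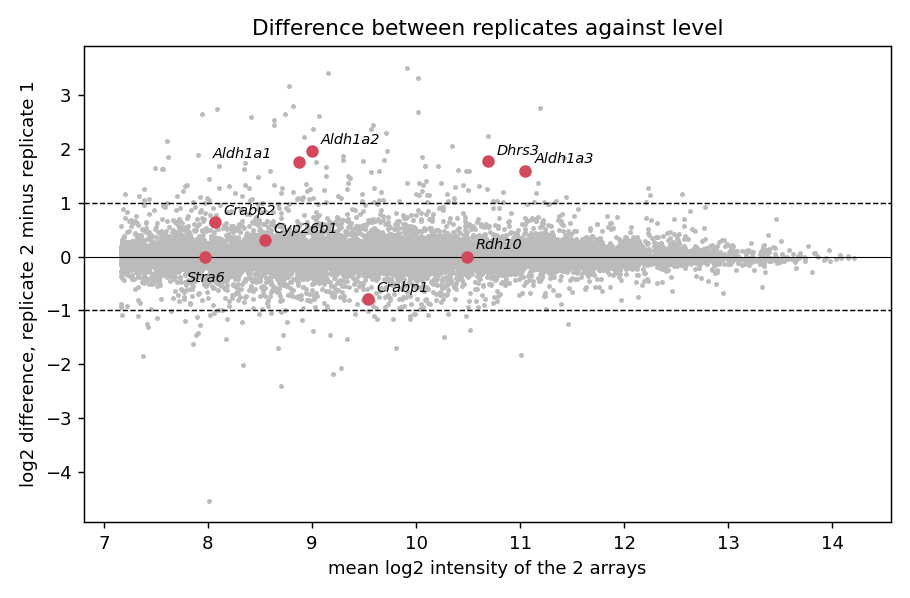
Difference between the arrays (replicate 2 minus replicate 1, log2) against the mean log2 intensity for the 13577 genes above the mean first limit (grey) and the 9 members (red), with dashed lines at 2-fold. Aldh1a1, Aldh1a2, Aldh1a3 and Dhrs3 lie above the upper line, and Crabp1 lies below 0 but inside the lower line.

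Other genes of the pathway were taken from lists by role. These lists gave 55 genes for analysis. Above the first limit on both arrays lay 36 of the 55, and 28 lay above the stricter one, shares near the 67.3% and 51.5% of all genes. Of the 39 with a mean above the limit, 22 were higher and 17 lower on replicate 2, with a median difference of 0.02. At least 2-fold higher on the measured values was 1 gene, Rarres1 (2.10-fold), and 0 were 2-fold lower. Among all genes the shares were 1.05% and 0.368%, so 1 and 0 of 39 are near the background. Rarres1 lay below the first limit on replicate 1, and with values below a limit set to it the count was 0.

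Uptake, carrier and storage genes were near background for the most part. Of 6 measured uptake and carrier genes, 2 passed the first limit, Scarb1 (10.50 and 10.42), a lipoprotein receptor, and Stra6l (7.47 and 7.64), a relative of Stra6. The plasma retinol carrier Rbp4 had 6.83 and 6.76 and its partner Ttr 5.93 and 5.77, below the limit on both arrays. For storage and carotene cleavage 3 of 6 passed, Dgat1 (10.15 and 10.22), the hormone-sensitive lipase Lipe (7.99 and 8.0) and lipoprotein lipase, Lpl (9.55 and 9.77). Lrat, which esterifies retinol for storage, had 7.18 and 6.82 and passed on replicate 1. None of these genes differed 1.5-fold among those with a mean above the limit.

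Of 16 other enzymes that can act on retinol or retinaldehyde, 10 passed the first limit and 6 the stricter one. Rdh11 had 10.04 and 9.97, Rdh13 10.17 and 10.05, Dhrs4 10.06 and 10.09 and Adh5 11.10 and 11.01 on replicates 1 and 2. The other 2 above the stricter limit were Rdh5 and Rdh14, with 8.49 and 8.78 and with 8.21 and 8.50. Adh7, a retinol-oxidising alcohol dehydrogenase, had 7.37 and 8.07 and was 1.63-fold higher on replicate 2, and was the 1 gene of the 10 past 1.5-fold. It lay below the stricter limit on replicate 1 and just above it on replicate 2, so this fold rests on signal near background.

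In synthesis, binding and breakdown outside the members, signal was limited to a few genes. Cyp1b1, a cytochrome that can oxidise retinoids, had 11.62 on replicate 1 and 12.13 on replicate 2, a 1.42-fold difference. Aldh8a1 (5.76 and 5.74) and Aldh1a7 (6.89 and 6.79) were below the first limit. Aldh1a7 is a close copy of Aldh1a1 and its neighbour on chromosome 19, and its probe set was low on both arrays. Fabp5, which can carry retinoic acid to the receptor PPARD, had 10.78 and 10.95. Cyp26a1 (6.26 and 6.48) was below the limit, and Cyp26c1 (8.08 and 7.99) was between the limits on replicate 2.

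Receptor genes had signal on both arrays with 1 exception. Of 7, 6 passed both limits. Rara had 10.41 and 10.25, Rarg 10.24 and 10.43, Rarb 8.65 and 8.91, Rxra 9.73 and 9.86, Rxrb 9.67 and 9.63 and Ppard 10.56 and 10.41. Rxrg, known from muscle and brain, had 6.59 and 6.61, below the limit. All 6 measured co-regulators, the coactivators Ncoa1, Ncoa2 and Ncoa3, the acetyltransferases Crebbp and Ep300 and the corepressor Nrip1, passed both limits. Differences of the receptors ran from -0.16 to 0.26 and those of the co-regulators from -0.23 to 0.21 on the log2 scale.

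Genes known to respond to retinoic acid did not share 1 direction. Of 12 measured, 8 passed the first limit and 7 the stricter one, and of the 9 with a mean above the limit 5 were higher and 4 lower on replicate 2. Rarres1, named for its induction by retinoids, had 6.90 and 7.97 and was at least 1.76-fold higher on replicate 2, with replicate 1 set to its limit. Tgm2, a transglutaminase, was 1.42-fold higher there (10.59 and 11.10), Rarb 1.20-fold and Hoxb1 1.03-fold. Meis1, a homeobox partner of Hox proteins, was 1.47-fold lower (10.33 and 9.78), and Meis2 had 11.13 and 11.09. Dhrs3, Stra6, Crabp2 and Cyp26b1 are known to respond as well, and their values stand above.

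**Figure D3:**
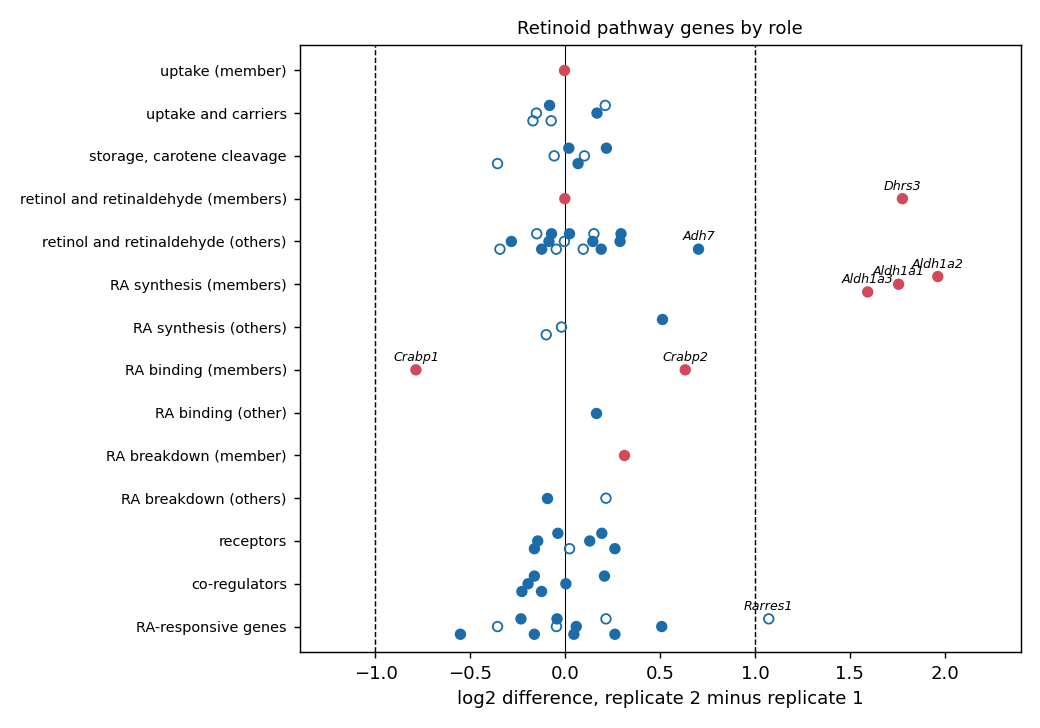
Difference between the arrays (replicate 2 minus replicate 1, log2) for the members (red) and the other measured retinoid genes (blue) by role. Filled circles lay above the first limit on each array, open circles did not, dashed lines mark 2-fold, and genes past 1.5-fold are named. The synthesis members and Dhrs3 lie to the right of 2-fold, and receptors and co-regulators lie within 0.3 of 0.

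The families to which the members belong were then examined. Of 18 measured aldehyde dehydrogenase genes outside the members, 14 had a mean above the limit and 0 of these differed 2-fold, against 1.05% higher and 0.368% lower among all genes, so that 0 of 14 is near the background. Past 1.5-fold were Aldh1l2, a mitochondrial folate enzyme, with 8.94 and 9.82 (1.84-fold), and Aldh3b1, with 9.31 and 10.05 (1.68-fold). The median difference of the 14 was 0.14. Aldh2, which clears acetaldehyde, had 11.77 and 11.91.

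Among 20 other genes of the Rdh and Dhrs series, 14 had a mean above the limit and 0 differed 2-fold. This is near the background of 1.05% higher and 0.368% lower among all genes. Dhrs7 was the 1 gene past 1.5-fold (8.88 and 9.49, 1.53-fold higher on replicate 2). Of 12 other intracellular lipid-binding proteins, the family of Crabp1 and Crabp2, 5 had a mean above the limit. Fabp4, a fatty acid carrier of adipocytes, had 7.34 and 8.36 (2.03-fold) and Fabp7 8.56 and 9.54 (1.97-fold). Like Crabp2, both were higher on replicate 2, and Fabp4, as Crabp2, lay below the stricter limit on replicate 1. Whether a family differs from the members was not tested.

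**Figure D4:**
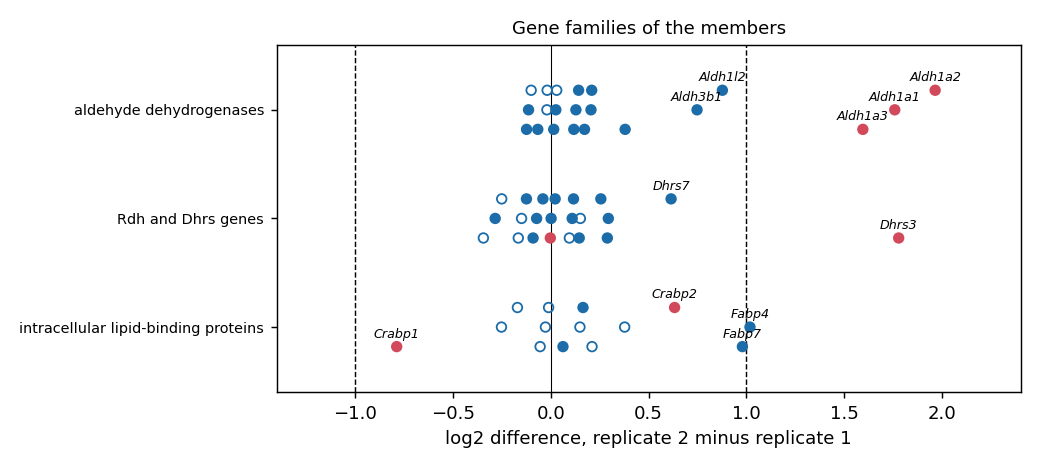
Difference between the arrays (replicate 2 minus replicate 1, log2) for the members (red) and the other measured genes (blue) of 3 families. Filled circles lay above the first limit on each array, open circles did not, dashed lines mark 2-fold and genes past 1.5-fold are named. The 3 members among the aldehyde dehydrogenases lie above 1.5, and the others of that family lie below 0.9.

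The next protein-coding genes on each side of the members in RefSeq order, 18 in all, were all measured. Under 1.5-fold were 17 of the 18, among them Anxa1 next to Aldh1a1 (1.12-fold), Polr2m next to Aldh1a2 (1.03-fold) and Lrrk1 next to Aldh1a3 (1.01-fold). Of all genes with a mean above the first limit, 2.87% were at least 1.5-fold higher and 1.91% lower. The 17 of 18 is thus near the background. Aldh1a7, next to Aldh1a1, and Aqp9, next to Aldh1a2, lay below the first limit on both arrays. Next to Dhrs3, the tumour necrosis factor receptor gene Tnfrsf1b was 1.49-fold higher on replicate 2, and next to Crabp2 the intermediate filament gene Nes was 1.48-fold lower. The exception was Islr, a marker of mesenchymal stromal cells next to Stra6, with 8.57 and 10.86 (4.89-fold higher on replicate 2), while Stra6 itself had the same level on both arrays.

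Markers of FRCs and of other cells were set beside these values. All 8 FRC markers of the list, among them Pdpn, Pdgfra and Pdgfrb, passed both limits on both arrays, and 7 of 8 were higher on replicate 2, by at most 0.52. The list leaves out Ccl19, a chemokine of FRCs. It had a mean of 8.01, near the stricter limit, and was lower on replicate 2 (-0.33). Of cell types known to express retinaldehyde dehydrogenases, mesothelial markers passed the first limit in 5 of 6 cases and the stricter one in 3. Among all named genes the shares were 67.3% and 51.5%. The 5 mesothelial markers with a mean above the limit were all lower on replicate 2 (median -0.12). This is a small difference, as the median absolute difference of all genes above the mean limit was 0.11. Krt19, also an epithelial gene, had 10.84 and 10.82, Upk1b 9.54 and 9.23 and Wt1 8.29 and 8.08. Dendritic cell markers passed the first limit in 2 of 7 cases, Zbtb46 (8.21 and 8.18), which also passed the stricter one on both arrays, and Flt3 (7.24 and 7.22). The other 5, among them Itgax (6.37 and 6.46) and the leukocyte gene Ptprc (6.41 and 6.47), were below it. The median levels of all 7 dendritic cell markers were 6.55 on replicate 1 and 6.50 on replicate 2. The part of mesothelial or dendritic cells in the levels of the members was not tested.

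Epithelial markers passed the first limit in 4 of 7 cases, near the 67.3% of all genes. Epcam (6.65 and 6.64) was below, and the differences of these markers were at most 0.20. Endothelial markers passed the first limit on both arrays in 3 of 8 cases and the stricter one on both in 0, while Emcn passed the stricter one on replicate 2 and Cdh5 on replicate 1. Emcn was 1.70-fold higher on replicate 2 (7.64 and 8.40), and Tek was at least 1.45-fold higher there, with replicate 1 set to its limit. Cdh5 was 1.44-fold lower (8.05 and 7.53), and Prox1 (6.44 and 6.40) was below the limit. Genes of the cell cycle and of the matrix also differed between the arrays in which the synthesis genes differed. All 9 cell cycle genes of a list were lower on replicate 2 (median -0.86), and all 11 matrix genes with a mean above the limit were higher (median 1.04), while of all 13577 genes 6948 were higher and 6629 lower. Both lists were put together with earlier results of these arrays known, so nothing is read from the shared direction. Genes outside the lists did not all follow it, such as the matrix gene Bgn (-0.0061) and the cyclin gene Ccnd1 (0.098). The part of the cell cycle and the matrix in the differences of the members was not tested.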

How the data were processed

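The authors deposited a linear intensity for each probe set on each of 2 arrays. It was computed with RMA (no version named), per the submitters' processing notes. RMA shrinks differences between weak signals and aligns the distributions of arrays, and the set of arrays aligned is not known here. The deposited intensities had medians of 286.0 and 285.7 and ran from 8.20 to 20996. For arrays, their number, 2, limits the precision.

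All values here are log2 intensities computed from the deposited ones with Python 3.11.15, pandas 2.3.3 and numpy 2.4.6. The platform annotation gave 1 gene for 21354 of 24679 probe sets, which were averaged to 19751 genes. The 1275 probe sets with several genes and the 2050 it does not list were not used. Limits of background were the 95th percentile of 1035 olfactory receptor probe sets (7.15 and 7.17 on replicates 1 and 2) and of 33 tissue-restricted probe sets (7.99 and 8.06). Differences are replicate 2 minus replicate 1, counted over 13577 genes whose mean level exceeded 7.16. With 1 array per side there is no test and no p-value. The counting was tested on simulated data.

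The members, lists and the rule for named genes were chosen with earlier results of these data known. The rule names all members, the retinoid genes of fixed lists, those on the smaller side of a limit where these were 5 or fewer, and list genes past 1.5-fold. Family lists, cell cycle and matrix lists, the neighbouring genes and the sequence motifs were added after the values were seen. Alternatives tried were another percentile or gene set for the limit, the highest or lowest probe set, each array left out, quantile normalisation, a loess trend with span 0.3 removed, a 1.5-fold threshold, values below a limit set to it, and no filter on level.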

Additional observations from a re-analysis of the deposited data

How the results depend on the processing

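The count of members above the first limit was 9. Only a stricter limit could lower it. The count was 7 at the tissue-restricted limit and 5 at the 99th percentile of the olfactory receptor probe sets, where more signal is needed to pass. It stayed 9 under the other alternatives, which could not change it. Each member has 1 probe set, and a looser limit or a left-out array can only keep all 9. The pathway count of 36 stayed between 28 and 43 under its alternatives. The 4 members past 2-fold stayed 4 under quantile normalisation and with the loess trend removed. They also stayed 4 with values set to the 99th percentile, and the 1.5-fold threshold gave 6. The other alternatives could not change these 4 differences, because each gene has 1 probe set and lay above both limits on both arrays. The differences of Aldh1a1, Aldh1a2, Aldh1a3 and Dhrs3 kept their direction, with folds from 3.30 to 3.38, 3.86 to 3.90, 2.99 to 3.02 and 3.36 to 3.43. Setting arrays to the 99th percentile was added after seeing the data. Of 63 counts of pathway lists under other settings, 8 moved by over 1.5 times. The difference has no leave-one-out value, because each side is 1 array. No paired analysis was possible because there is 1 group. The 2 arrays and the compression of low signal by RMA limit what can be said of genes near the limits, such as Stra6, Crabp2 and, on replicate 1, Aldh1a1 and Aldh1a2.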
